A study of Mus musculus with 6 samples.

Results

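Complex I of the respiratory chain was followed through 46 genes, all protein-coding rows of the deposited count table whose symbol begins with Nduf, out of 54385 rows of which 21811 were protein-coding. By name, 38 of them form the structural class and 8 are assembly factors (Ndufaf1 to Ndufaf8). The tissue, per the sample labels, was interscapular brown adipose tissue, fat between the shoulder blades that produces heat, although the design text calls it inguinal. It came from C57BL/6N mice aged 20 weeks that ate chow until 8 weeks of age, then a high-fat diet (D12492) for 12 weeks, and were held at 4 °C for 24 h, and this diet and cold exposure were shared by every group. Wild-type mice (genotype wt/wt) gave 3 libraries and ADCY3∆AT mice, labelled as a knockout of Adcy3-AT, gave 3. Adcy3 encodes adenylyl cyclase 3, which produces cyclic AMP, and the way the allele was made, or any cell type it is limited to, is not given in the sources used. No library without cold exposure was analysed here, so the comparison is of genotypes in the cold. Nothing in the labels says that replicates are separate animals, so the p-values measure only the spread between these libraries.

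Complex I takes electrons from NADH, passes them along a flavin and a chain of iron-sulfur clusters to ubiquinone, and pumps protons out of the mitochondrial matrix. Its peripheral arm is built of a module that oxidises NADH (N module) and a module that reduces ubiquinone (Q module), and its membrane arm of a proximal and a distal proton-pumping module. Assembly factors join these parts and are absent from the finished enzyme. In brown fat the proton gradient is discharged through the uncoupling protein UCP1, which releases its energy as heat.

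Libraries held between 44826777 and 54933588 estimated counts. The targeted gene was checked first: Adcy3 lay at 651.9 to 727.8 CPM (counts scaled to library totals multiplied by TMM factors) over the wild-type libraries and at 341.9 to 505.6 CPM over those of ADCY3∆AT. Its log2 fold change was -0.78 ± 0.14 (SE). It did not pass an adjusted p of 0.05 in edgeR (adjusted p = 0.158) and did in DESeq2 (adjusted p = 4.23e-07). Brown adipocyte markers summed to between 20262 and 20321 CPM over the wild-type libraries and between 19219 and 19721 CPM over those of ADCY3∆AT (10 genes, none at 0 in any library), so the labelled tissue carried its markers. The sum was lower in every ADCY3∆AT library, and 4 of the 10 genes were too (8.83% of all genes were lower without overlap). Dio2, the deiodinase that activates thyroid hormone, had 669.8, 816.2 and 623.1 CPM in wild type against 309.7, 328.3 and 616.4 CPM in ADCY3∆AT (log2 fold change -0.75 ± 0.25, SE, edgeR adjusted p = 0.334, DESeq2 adjusted p = 0.54). Elovl3, a fatty acid elongase, had 497.7, 421.5 and 386 CPM in wild type against 292.5, 331.9 and 376.2 CPM in ADCY3∆AT (-0.38 ± 0.11, edgeR adjusted p = 0.305, DESeq2 adjusted p = 0.033). Ucp1 and Cox7a1 were lower without overlap by less, at log2 fold changes of -0.055 and -0.046. Cidea, Cox8b, Adipoq, Fabp4, Plin1 and Pparg overlapped between groups, with log2 fold changes from -0.040 (Adipoq) to 0.035 (Plin1). A list of 26 skeletal muscle markers summed to 2333, 1499.7 and 4409.1 CPM in wild-type replicates 1 to 3 and to 38.5, 298.9 and 610.3 CPM in ADCY3∆AT replicates 1 to 3, and all 26 were lower in every ADCY3∆AT library. In ADCY3∆AT replicate 1, 4 of these markers were at 0. Muscle carries complex I too, and the part of these differences in muscle and brown adipocyte markers in the values that follow was not tested. In bulk tissue, fewer cells of a type and less RNA per cell cannot be told apart.

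Some members share their sequence with other rows of the table, so reads from them could be split between rows. Of the 46 members, 14 had at least 1 row elsewhere in the table at 90% identity or more over at least 50% of the coding sequence (21 such rows), and 2 of these rows reached 1 CPM. The first is Ndufb4c (chr15:73809507-73809896, minus strand, GRCm38), a processed pseudogene, whose 390 bases match the 390 coding bases of Ndufb4 (chr16:37647170-37654453, minus strand), a subunit of the distal pumping module, with 0 mismatches. The first 120 coding bases of both, from GENCODE M21 transcripts, are shown with the start codon in capitals.
Ndufb4: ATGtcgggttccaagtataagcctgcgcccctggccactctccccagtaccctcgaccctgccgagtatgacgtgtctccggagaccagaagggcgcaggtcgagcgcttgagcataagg
Ndufb4c: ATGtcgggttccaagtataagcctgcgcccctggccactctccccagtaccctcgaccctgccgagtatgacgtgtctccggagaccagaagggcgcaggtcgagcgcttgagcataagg
The second is Gm4459 (chr7:139659688-139660155, minus strand), a processed pseudogene of Ndufab1 (chr7:122085403-122101886, minus strand), which encodes the mitochondrial acyl carrier protein. Over 468 aligned of 471 coding bases they differ once, G137A, counted from 1 at the first coding base of Ndufab1. Coding bases 117 to 157 are shown with that base in capitals.
Ndufab1: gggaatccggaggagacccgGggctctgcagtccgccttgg
Gm4459: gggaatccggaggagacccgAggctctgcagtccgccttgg

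Start-site windows from RefSeq (GRCm38.p6), 300 bases long with 250 before the start and 50 from the start on, were found for 40 of the 46 members (42 windows) and searched on both strands for motifs of factors known to act on genes of the respiratory chain. The motif of nuclear respiratory factor 1 (NRF1), GCGCATGCG, stood in 4 of 42 member windows (9.52%) and in 1.75% of all 32851 windows. The motif of YY1, AAGATGGCG, stood in 6 of 42 (14.3%) and in 1.4% of all. The SP motif GGGGCGGGG stood in 6 of 42 (14.3%, 11.4% of all) and the ETS motif CCGGAAGT in 1 of 42 (2.38%, 3.89% of all). The motif of the oestrogen-related receptors, TCAAGGTCA (0.423% of all), and that of hypoxia-inducible factor, TACGTG (3.23% of all), were in 0 of 42. No matches of different motifs overlapped in the member windows. The whole window of Ndufaf4 is shown because this gene had the largest difference between genotypes among the assembly factors, with the NRF1 match, 113 bases before the start, in capitals (chr4:24897833-24898132, plus strand). Capitals span 10 bases where the motif matched on both strands.
Ndufaf4: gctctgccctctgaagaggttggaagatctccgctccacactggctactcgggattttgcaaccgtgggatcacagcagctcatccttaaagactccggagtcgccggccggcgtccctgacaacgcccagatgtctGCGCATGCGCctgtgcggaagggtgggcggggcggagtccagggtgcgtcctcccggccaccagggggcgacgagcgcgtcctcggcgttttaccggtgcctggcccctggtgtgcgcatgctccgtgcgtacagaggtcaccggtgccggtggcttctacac
The other matches to NRF1 and YY1 are shown with up to 10 bases on each side, in the orientation of the gene and with the match in capitals. The NRF1 matches begin 60 bases before the start of Ndufa11 (chr17:56717692-56717721, plus strand), 9 before that of Ndufa8 (chr2:36049329-36049357, minus strand) and 16 bases after that of Ndufaf5 (chr2:140170652-140170681, plus strand).
Ndufa11: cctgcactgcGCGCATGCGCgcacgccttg
Ndufa8: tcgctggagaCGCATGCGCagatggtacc
Ndufaf5: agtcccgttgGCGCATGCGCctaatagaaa
The 6 YY1 matches all begin after the start site, between 10 bases (Ndufaf8) and 35 bases (Ndufs4), and in 5 of 6, all but that of Ndufaf8, the ATG inside the match is the annotated start codon. They lie at chr6:126849097-126849125 (minus strand) for Ndufa9, chr3:51408915-51408943 (minus) for Ndufc1, chr13:114388045-114388069 (minus) for Ndufs4, chr13:73328433-73328459 (minus) for Ndufs6, chr10:80249463-80249491 (plus) for Ndufs7 and chr11:120098934-120098962 (plus) for Ndufaf8.
Ndufa9: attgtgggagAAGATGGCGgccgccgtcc
Ndufc1: cctgcggaacAAGATGGCGccgtccgtag
Ndufs4: tgcctacaggAAGATGGCGgcggtc
Ndufs6: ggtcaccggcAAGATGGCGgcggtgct
Ndufs7: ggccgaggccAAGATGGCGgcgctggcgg
Ndufaf8: ggcagggcccAAGATGGCGgcgccctcga
A match is a description of these letters and was not tied to any binding measurement.

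Structural genes and assembly factors differed most in level. Levels between genes were compared as CPM per kilobase of annotated exon, as means of the 6 libraries. The median was 196.6 for the 38 structural genes and 13.6 for the 8 assembly factors, 14.5-fold apart (15.0-fold with the length of the principal transcript), and 36 of 38 structural genes lay above the highest assembly factor, Ndufaf1 at 25.9. Ndufaf1 is a chaperone of early membrane-arm intermediates. The remaining assembly factors lay between 10.5 (Ndufaf7, a methyltransferase) and 21.2 (Ndufaf4), so the class spanned 2.47-fold.

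Among the structural genes, Ndufa4 had the highest level per kilobase, 732.7, and Ndufb9 at 551.6, Ndufv1 at 355.1 and Ndufa3 at 313.2 were also among the highest. Ndufa4 is named for complex I but is known as a protein of cytochrome c oxidase (complex IV), and Ndufv1 is the core subunit that binds NADH. Medians by module were 243.0 for Q (6 genes), 212.5 for N (10), 190.7 for the proximal pump (9) and 184.6 for the distal pump (10), each inside the range of the others. The 7 nuclear core subunits, which carry the redox centres and are shared with bacterial complex I, had a median of 231.1, and the 29 accessory subunits one of 182.1. Of the structural genes below Ndufaf1, Ndufb2 lay at 23.95 and has 4375 bases of annotated exon, the most but one of the class. The other, Ndufa4l2, is the paralog of Ndufa4 and known as a hypoxia-inducible gene, and had the lowest level of all 46 at 5.35. The order depends on the length used: with that of the principal transcript, Ndufb8 stood at 606.5 in place of 177.1 and Ndufa11 at 210.1 in place of 104.8, while Ndufa4 was again the highest (749.5). Module medians changed order as well, to 279.6 for Q, 233.3 for the distal pump, 217.8 for N and 210.1 for the proximal pump.

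**Figure D1:**
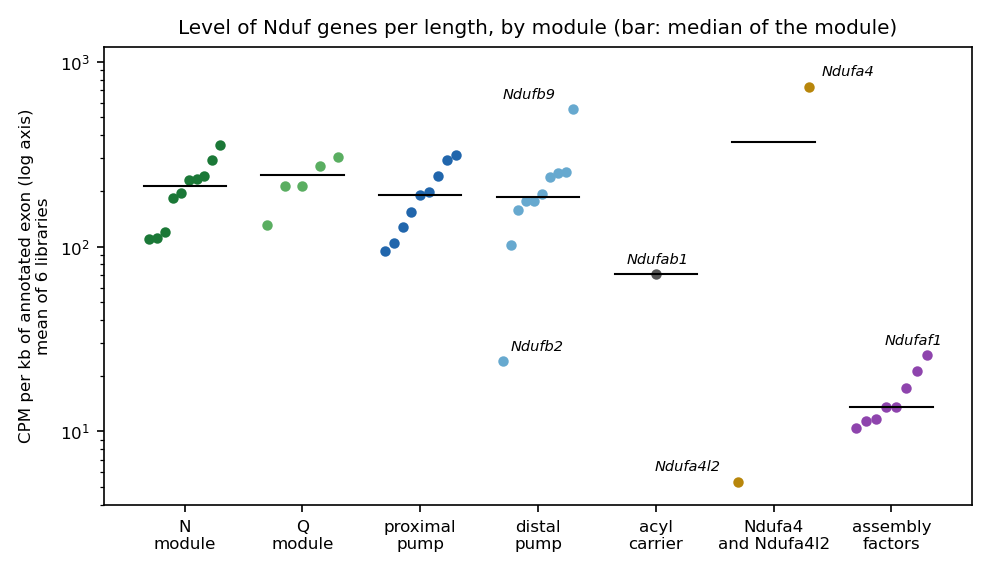
Level of 45 of the 46 Nduf genes in CPM per kilobase of annotated exon (log axis, mean of 6 libraries), by module; points are genes and bars are medians over all genes of the module. The assembly factors sit between 10.5 and 25.9, below all structural genes but Ndufb2 and Ndufa4l2.

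Between genotypes, complex I genes differed by little. None of the 46 members passed an adjusted p of 0.05 in edgeR's quasi-likelihood test (0.00552% of the 18114 genes tested did) and none in DESeq2 (1.17% of 19841), and the lowest adjusted p of a member in edgeR was 0.367. At an unadjusted p under 0.05 stood 1 of 46, Ndufaf4, lower in ADCY3∆AT, where 11% of all genes did (5.78% lower and 5.23% higher). Fold changes were bounded closely: the 95% interval lay within 1.5-fold in either direction for 46 of 46 members (60.3% of all genes) and within 1.2-fold for 40 of 46 (27.8% of all genes). The narrow intervals came with little spread between replicates, since the median coefficient of variation within a genotype was 4.01% for structural genes, 5.22% for assembly factors and 10.7% for all genes. The members were not compared with genes of like level, so these values do not set complex I apart from such genes.

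Small differences leaned one way. The log2 fold change (ADCY3∆AT over wild type) was negative in 38 of 46 members, where 49.1% of all genes were negative, and its median was -0.034 over the members and 0.0039 over all genes. Members share libraries and scaling, so they are not independent of one another. The count ran from 30 of 46 (ADCY3∆AT replicate 2 left out) to 40 of 46 (ADCY3∆AT replicate 1 left out) over the alternative runs. It was 31 with library totals alone in place of scaling factors and 31 with wild-type replicate 2 left out. By class the median was -0.031 for structural genes (32 of 38 negative) and -0.075 for assembly factors (6 of 8 negative). Groups did not overlap in 6 members, 5 of them lower in ADCY3∆AT (Ndufaf4, Ndufb4, Ndufb6, Ndufc1 and Ndufa6) and 1 higher (Ndufv3), which is 13% of the members where 16.5% of all genes did not overlap (8.83% lower and 7.68% higher).

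**Figure D2:**
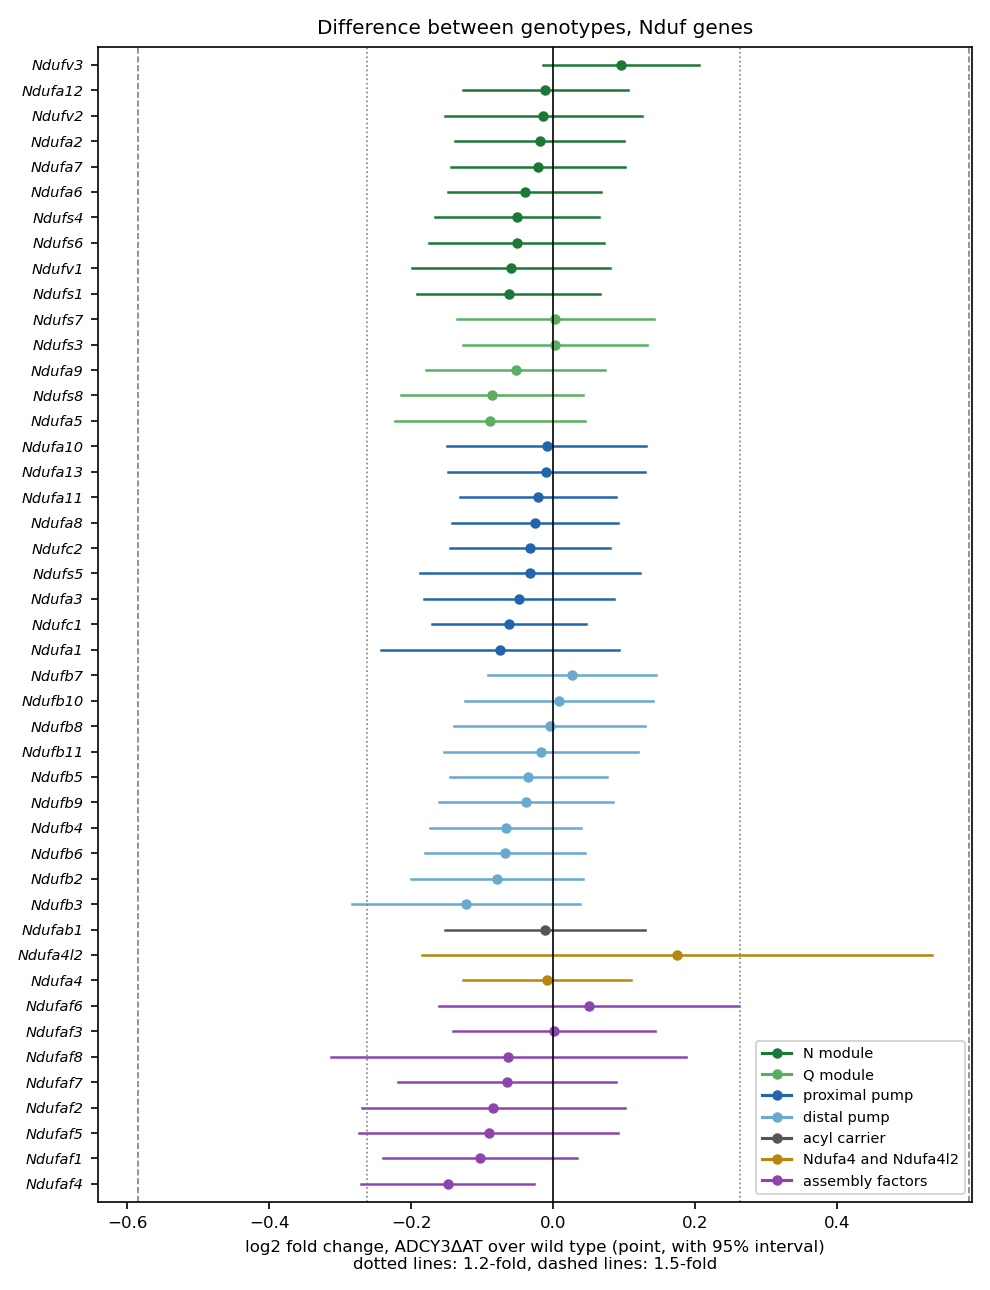
Log2 fold change of 45 of the 46 Nduf genes, ADCY3∆AT over wild type (points), with its 95% interval (lines) from edgeR's fit of 3 against 3 libraries, coloured by module. Every interval lies inside the dashed 1.5-fold lines, 39 of 45 lie inside the dotted 1.2-fold lines, and the interval of Ndufaf4 is the one that does not reach 0.

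Summed over the class, structural genes held 9644.9, 9993.3 and 9727.9 CPM in wild-type replicates 1 to 3 and 9979.1, 9316.8 and 9459.9 CPM in ADCY3∆AT replicates 1 to 3. The groups overlapped, with ADCY3∆AT replicate 1 near the highest wild-type library and ADCY3∆AT replicates 2 and 3 below all of wild type. Means were 9789 ± 182 and 9585 ± 349 CPM (SD, n = 3 each), a ratio of 0.979, and with library totals alone the ratio was 0.99.

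**Figure D3:**
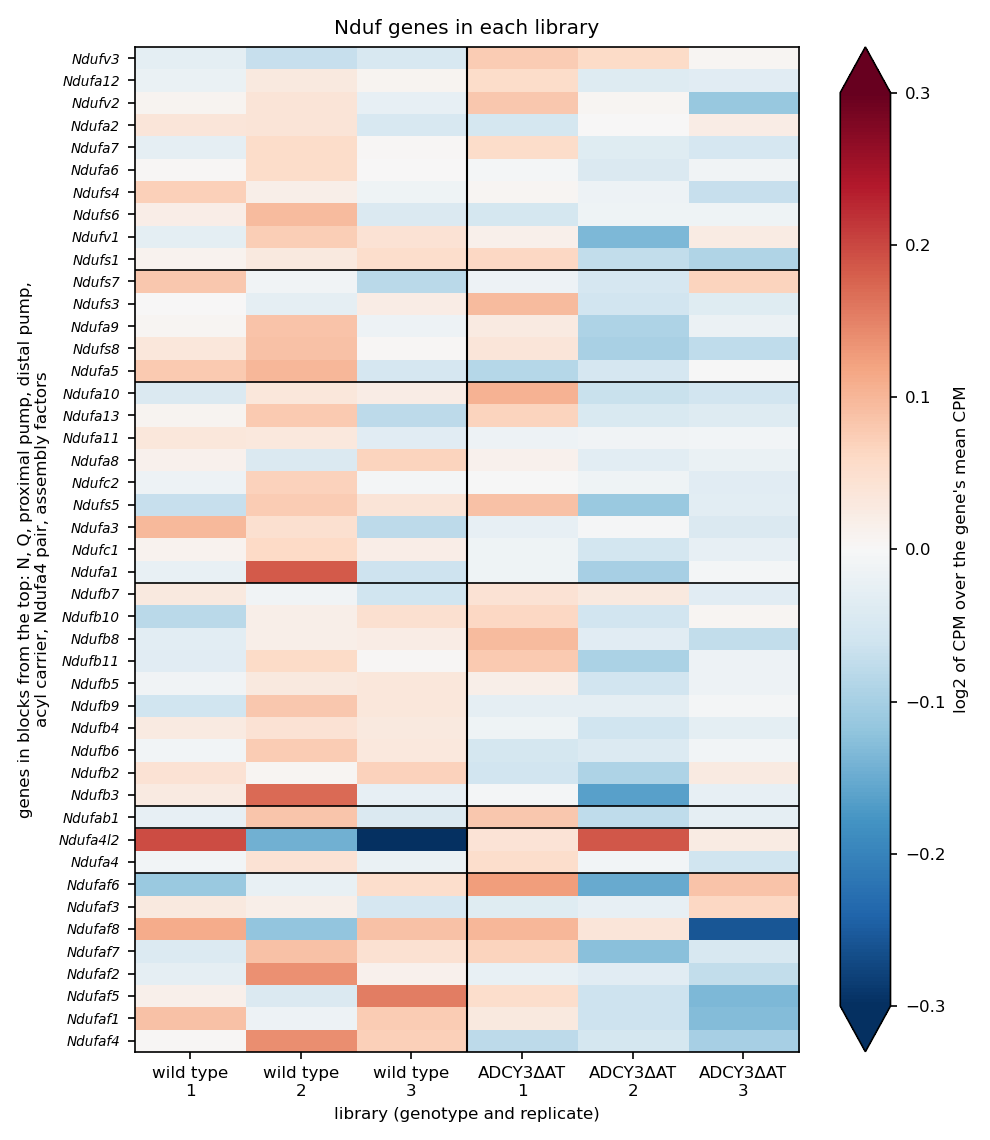
Log2 of CPM over the gene's mean CPM for 45 of the 46 Nduf genes (rows, in blocks by module) in each of the 6 libraries (columns); red is above and blue below the gene's mean, and the scale ends at 0.3 in either direction. Most cells are pale, and wild-type replicate 2 and ADCY3∆AT replicate 2 show the widest runs of red and of blue.

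The N module binds NADH. Its core subunit Ndufs1, which holds iron-sulfur clusters and was the module's most abundant transcript in CPM, had 652.7, 660.8 and 672.2 CPM in wild type against 676.5, 615.4 and 608.9 CPM in ADCY3∆AT. The groups overlapped through ADCY3∆AT replicate 1, the highest of all 6, and the log2 fold change was -0.063 ± 0.056 (SE). Ndufv3, an accessory subunit beside the NADH site, had 238.7, 232.2 and 235.5 CPM in wild type against 256.7, 253.3 and 244.3 CPM in ADCY3∆AT. It was the one member whose ADCY3∆AT libraries all lay above wild type, with a log2 fold change of 0.095 ± 0.048 (adjusted p = 0.519). Ndufa6, an accessory subunit that binds the acyl carrier subunit, had 199.4, 206.4 and 198.9 CPM in wild type against 197.9, 192.8 and 197.2 CPM in ADCY3∆AT. The groups nearly touched without overlap, and the log2 fold change was -0.041 ± 0.047 (adjusted p = 0.793). In the other 7 genes of the module (Ndufv1, Ndufv2, Ndufs4, Ndufs6, Ndufa2, Ndufa7 and Ndufa12) the groups overlapped and log2 fold changes ran from -0.060 (Ndufv1, which binds the flavin) to -0.011 (Ndufa12).

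The Q module hands electrons to ubiquinone. Ndufs8, a core subunit that carries iron-sulfur clusters on the path to ubiquinone, had 281.6, 292.3 and 275.5 CPM in wild type against 282.1, 257.1 and 261.0 CPM in ADCY3∆AT. ADCY3∆AT replicate 1 lay among the wild-type libraries and the other two below them, for a log2 fold change of -0.086 ± 0.056 (adjusted p = 0.620). Ndufa5, an accessory subunit, had 121.0, 122.8 and 110.7 CPM in wild type against 108.0, 110.7 and 114.6 CPM in ADCY3∆AT. Here wild-type replicate 3 lay within the range of ADCY3∆AT, and the log2 fold change was -0.089 ± 0.059. Ndufa9 had a log2 fold change of -0.053, and Ndufs3 and Ndufs7, both core subunits, had 0.0027 and 0.0029.

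The proximal pump joins the membrane arm to the Q module. Its most abundant transcript in CPM, Ndufa10, had 576.9, 607.9 and 603.7 CPM in wild type against 638.5, 566.9 and 571.4 CPM in ADCY3∆AT. The ADCY3∆AT libraries spread on both sides of wild type, and the log2 fold change of -0.0095 ± 0.061 turned sign with library totals alone (0.0047). Ndufc1, a small membrane subunit, had 118.8, 122.9 and 119.6 CPM in wild type against 116.8, 113.4 and 115.8 CPM in ADCY3∆AT, without overlap (log2 fold change -0.063 ± 0.047, adjusted p = 0.672). Ndufa1, a small membrane subunit that is X-linked, had 99.0, 114.2 and 96.2 CPM in wild type against 99.7, 93.9 and 100.2 CPM in ADCY3∆AT. Wild-type replicate 2 stood above the rest, and the log2 fold change of -0.075 ± 0.073 came to 0.0039 without that library. The other 6 genes (Ndufa3, Ndufa8, Ndufa11, Ndufa13, Ndufc2 and Ndufs5) overlapped between groups, with log2 fold changes from -0.048 (Ndufa3) to -0.0097 (Ndufa13).

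The distal pump forms the far end of the membrane arm. Ndufb8, its most abundant transcript in CPM and a subunit often used as an antibody marker of assembled complex I, had 403.2, 417.4 and 418.9 CPM in wild type against 440.7, 402.8 and 391.6 CPM in ADCY3∆AT. The groups overlapped, and the log2 fold change of -0.0051 ± 0.059 turned sign with library totals alone (0.0091). Ndufb3, an accessory subunit, had 123.2, 136.1 and 118.9 CPM in wild type against 120.5, 108.0 and 118.9 CPM in ADCY3∆AT. Its log2 fold change of -0.12 ± 0.07 was the most negative of the structural class, with the groups overlapping and ADCY3∆AT replicate 2 the lowest library (adjusted p = 0.567). Ndufb2 had 107.9, 105.2 and 109.9 CPM in wild type against 100.7, 98.3 and 106.7 CPM in ADCY3∆AT, where replicate 3 lay above the lowest wild-type library (log2 fold change -0.079 ± 0.053). Ndufb6 had 166.1, 176.0 and 170.8 CPM in wild type against 161.1, 162.3 and 166.0 CPM in ADCY3∆AT. Its groups also nearly touched, at a log2 fold change of -0.068 ± 0.049 (adjusted p = 0.653). The other 5 genes apart from Ndufb4 (Ndufb5, Ndufb7, Ndufb9, Ndufb10 and Ndufb11) overlapped, with log2 fold changes from -0.038 (Ndufb9) to 0.026 (Ndufb7).

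Ndufb4 showed how a shared sequence bears on such a small difference. Its own row had 100.4, 101.6 and 100.7 CPM in wild type against 97.8, 94.6 and 96.6 CPM in ADCY3∆AT, without overlap (log2 fold change -0.067 ± 0.046, adjusted p = 0.642). The Ndufb4c row, with the coding sequence printed above, had 104.1, 110.2 and 101.0 CPM in wild type against 118.6, 109.5 and 101.1 CPM in ADCY3∆AT, and so held 52.1% of the counts of both rows. The sources used here do not give how the deposited estimates split reads between both rows. Their sum was 204.5, 211.9 and 201.6 CPM in wild type against 216.4, 204.1 and 197.7 CPM in ADCY3∆AT. Summed, the groups overlapped, with means of 206.0 ± 5.3 and 206.0 ± 9.5 CPM (SD, n = 3 each) and a log2 fold change of 3e-04 (95% interval -0.12 to 0.12).

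**Figure D4:**
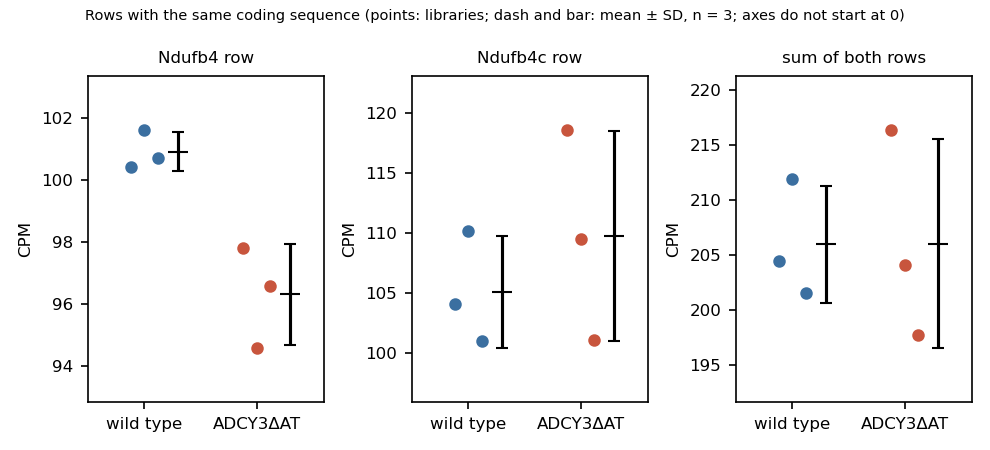
CPM of the Ndufb4 row, of the Ndufb4c row with the same coding sequence, and of their sum in each library (points), with mean ± SD of 3 libraries per genotype; the vertical axes do not start at 0. The Ndufb4 row separates the genotypes (100.4 to 101.6 against 94.6 to 97.8 CPM), and the sum does not.

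Ndufab1, the acyl carrier subunit that sits in both arms and also serves mitochondrial fatty acid synthesis, had 305.9, 329.5 and 302.2 CPM in wild type against 329.0, 295.4 and 305.7 CPM in ADCY3∆AT. The groups overlapped fully, and the log2 fold change was -0.012 ± 0.061, with its sign turned by library totals alone (0.0040). Gm4459 held 5.98% of the counts of both rows, and with it added the log2 fold change was -0.012 ± 0.059. Ndufa4 had 454.3, 470.8 and 451.0 CPM in wild type against 474.0, 454.3 and 438.8 CPM in ADCY3∆AT (log2 fold change -0.0094 ± 0.052, and 0.0058 with library totals alone). Its paralog Ndufa4l2 had 5.72, 4.52 and 3.83 CPM in wild type against 5.14, 5.69 and 5.08 CPM in ADCY3∆AT. Wild-type replicates 1 and 3 held the highest and the lowest value, and the log2 fold change of 0.17 ± 0.16 had the widest interval of the structural class, -0.19 to 0.53.

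Of the assembly factors, Ndufaf4 differed most. This gene (ENSMUSG00000028261, chr4:24898083-24905001, plus strand) encodes a small partner of Ndufaf3 in the assembly of the Q module. It had 77.1, 84.7 and 80.9 CPM in wild type against 72.9, 74.2 and 71.9 CPM in ADCY3∆AT, so that the highest ADCY3∆AT value lay under the lowest of wild type. Its log2 fold change was -0.15 ± 0.05, the 95% interval ran from -0.27 to -0.028, and the unadjusted p of 0.0219 became 0.367 after adjustment over all genes, so it did not pass. Ndufaf3, its partner, had a log2 fold change of 0.0010 with overlapping groups (16.3 to 17.3 CPM in wild type, 16.5 to 17.7 CPM in ADCY3∆AT). Ndufaf1 had 40.7, 37.9 and 40.3 CPM in wild type against 39.1, 36.7 and 34.97 CPM in ADCY3∆AT. Of the ADCY3∆AT libraries, replicate 1 alone reached the wild-type range, and the log2 fold change was -0.10 ± 0.06 (adjusted p = 0.572). In the remaining 5, whose groups overlapped, it was -0.085 for Ndufaf2, -0.091 for Ndufaf5, 0.050 for Ndufaf6, -0.065 for Ndufaf7 and -0.063 for Ndufaf8. Ndufaf2 is a chaperone of late assembly that is released when the N module is complete, and Ndufaf5 is an enzyme that modifies Ndufs7.

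Set against each other, the classes differed by a few percent, and the lack of overlap between genotypes was lost without Ndufaf4. Assembly factors summed to 214.2, 220.5 and 221.4 CPM in wild type against to 212.1, 203.1 and 199.99 CPM in ADCY3∆AT, without overlap (218.7 ± 3.9 and 205.1 ± 6.3 CPM, SD, n = 3 each, ratio 0.938). Structural counts per assembly factor count were 45.02, 45.3 and 43.9 in wild type against 47.1, 45.9 and 47.3 in ADCY3∆AT (44.8 ± 0.73 and 46.7 ± 0.76, SD, n = 3 each), also without overlap. The sum and the ratio share the assembly factor counts, so they are not separate observations. Of all single genes, 16.5% did not overlap. Ndufaf4 supplied more counts than any other assembly factor, and without it the ratio was 70.4, 73.6 and 69.2 in wild type against 71.7, 72.3 and 73.8 in ADCY3∆AT (71.1 ± 2.3 and 72.6 ± 1.1, SD, n = 3 each). These groups overlapped, and the assembly factor sum then had a ratio of 0.959, still below the 0.979 of the structural sum, and a median log2 fold change of -0.065. On log2 fold changes, which weight genes equally, the structural median was 0.044 above the assembly factor median, and between 0.0070 (without wild-type replicate 3) and 0.070 when single libraries were left out. No test was made of this difference between lists chosen by name. It also depended on the list. With the 10 assembly factors not named Nduf added, the assembly factor median was -0.054 in place of -0.075. Those 10 alone had a median of -0.029, close to the structural median of -0.031. The difference between medians therefore describes the assembly factors named Nduf, not assembly factors in general.

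**Figure D5:**
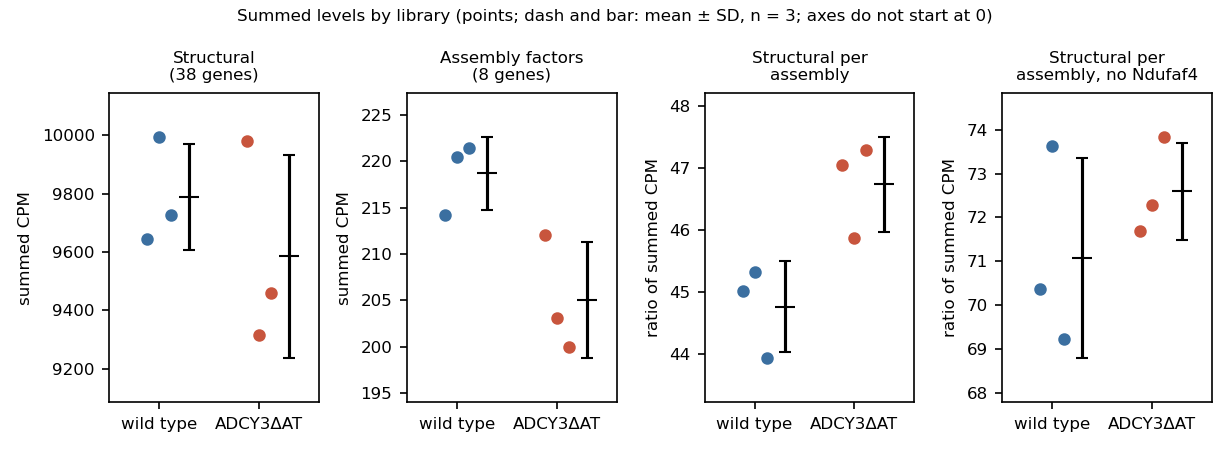
Summed CPM of structural genes and of assembly factors, and structural counts per assembly factor count with and without Ndufaf4, in each library (points), with mean ± SD of 3 libraries per genotype; the vertical axes do not start at 0. The ratio separates the genotypes with all 8 assembly factors (43.9 to 45.3 against 45.9 to 47.3) and overlaps once Ndufaf4 is left out.

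Other genes of the pathway came from lists chosen by function. Of 10 assembly factors not named Nduf, 0 passed the threshold, 1 stood at an unadjusted p under 0.05 (11% of all genes did), and the median log2 fold change was -0.029. That gene was Timmdc1, a membrane-arm assembly factor, at 30.4, 31.1 and 30.3 CPM in wild type against 28.7, 27.8 and 27.7 CPM in ADCY3∆AT (log2 fold change -0.12 ± 0.05, adjusted p = 0.413), without overlap. Nubpl, which delivers iron-sulfur clusters, came next with 15.8, 16.9 and 15.8 CPM in wild type against 18.9, 17.9 and 16.8 CPM in ADCY3∆AT, in the opposite direction and with overlap (0.14 ± 0.07, adjusted p = 0.509). Tmem126b followed with 31.3, 34.0 and 31.7 CPM in wild type against 32.4, 30.0 and 30.6 CPM in ADCY3∆AT, overlapping groups (-0.059 ± 0.058). Per kilobase, these factors ranged from 5.69 (Nubpl) to 62.3 (Tmem70), so the highest of them stood above every Ndufaf gene.

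All 7 mitochondrially encoded subunits had overlapping groups, 0 of 7 stood at an unadjusted p under 0.05 (11% of all genes did), and their median log2 fold change was -0.0072. Their spread was wider than that of the nuclear genes, with a median coefficient of variation of 13.2% within a genotype. The lowest p-values were those of mt-Nd3 (log2 fold change -0.46 ± 0.32), mt-Nd4l (0.14 ± 0.10) and mt-Nd4 (0.093 ± 0.11). For mt-Nd3, the libraries held 3802, 7172 and 4818 CPM in wild type against 3144, 2497 and 5833 CPM in ADCY3∆AT. For mt-Nd4l, they held 161.8, 202.9 and 165.7 CPM in wild type against 211.1, 199.2 and 173.9 CPM in ADCY3∆AT. For mt-Nd4, they held 2335, 3080 and 2388 CPM in wild type against 2922, 2891 and 2507 CPM in ADCY3∆AT. The 95% interval of mt-Nd3, from -1.20 to 0.28, was wider than that of any of the 46 nuclear genes.

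Among 9 regulators of nuclear respiratory genes, 0 passed the threshold and 2 stood at an unadjusted p under 0.05, where 11% of all genes did. Pprc1, a coactivator of the PGC-1 family, had 7.44, 8.68 and 7.96 CPM in wild type against 6.21, 6.99 and 6.82 CPM in ADCY3∆AT (log2 fold change -0.26 ± 0.10, adjusted p = 0.387). Ppargc1b, another member of that family, had 75.9, 71.4 and 72.0 CPM in wild type against 84.1, 76.8 and 81.2 CPM in ADCY3∆AT (0.14 ± 0.06, adjusted p = 0.404). Neither pair of groups overlapped, and the directions were opposite. Esrra, an oestrogen-related receptor that acts on genes of oxidative metabolism, followed with 165.2, 178.6 and 174 CPM in wild type against 150, 163 and 169.2 CPM in ADCY3∆AT, overlapping groups (-0.10 ± 0.06).

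The row Ndufb1-ps was not a member, since GENCODE M21 does not list it as protein-coding, although RefSeq (GRCm38.p6) lists the gene as protein-coding Ndufb1, a distal pump subunit. It had 85.7, 89.3 and 83.7 CPM in wild type against 84.2, 80.0 and 74.7 CPM in ADCY3∆AT. One ADCY3∆AT library lay in the wild-type range, and the log2 fold change was -0.11 ± 0.06 (adjusted p = 0.532).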

How the data were processed

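Total RNA of 6 libraries was profiled by paired-end sequencing, per the labels' protocols. The deposited values are estimated counts per gene, made by the authors (31.6% of values were not whole). StringTie, Salmon, edgeR and build GRCm38 are named, without versions or roles, in the submitters' processing notes. Here, rows were matched to GENCODE M21 by gene identifier (54131 of 54385) and estimated counts were rounded. Rows without a symbol held from 0.0028% to 0.0656% of a library.

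Genes kept by filterByExpr (18114, all 46 members among them) were fitted with edgeR 4.0.16 (R 4.3.3, TMM scaling, quasi-likelihood test, genotype alone), with Benjamini-Hochberg adjustment over all genes. CPM used library totals multiplied by the TMM factors. Depth was 44826777 to 54933588 counts, and every pair of libraries differed by more than sampling noise.

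Named with values in every library were the most abundant and both lowest-p members of each module, every member at an unadjusted p under 0.05 or without overlap of the groups, Ndufa4 and Ndufa4l2, and the 3 lowest p-values of each pathway list. As an exception, 1 member is counted in all totals, medians and counts but is not reported here by itself. Ndufaf3, Ndufb1-ps, Ndufb4c and Gm4459 were singled out after their values were seen. Members and lists were chosen with earlier results of these data known. The endothelial list differed too (5 of 6 genes higher in every ADCY3∆AT library, where 7.68% of all genes were). The fibroblast, macrophage and mural lists (6 genes each) held 0 genes without overlap. Median log2 fold changes were 0.15 for the endothelial, 0.19 for the fibroblast, 0.28 for the macrophage and 0.039 for the mural list. The macrophage list was imprecise, with 1 of 6 intervals within 1.5-fold (60.3% of all genes). The part of these lists in the results was not tested. Each library was left out in turn, and other runs used a replicate block, DESeq2 1.42.0, voom from limma 3.58.1, RLE factors or no scaling factors, other filters, a threshold of 0.1, or no mitochondrially encoded genes. Near-identical rows were summed with their member, and Ndufaf4 left out, as choices made after seeing the data.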

Additional observations from a re-analysis of the deposited data

How the results depend on the processing

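No member passed the threshold under any alternative, and the lowest adjusted p of a member ranged from 0.322 to 0.725. Over all genes, 1 passed in edgeR, 232 in DESeq2, 2 in limma voom, 214 without a filter, 3 with the replicate block, and 1 to 66 when single libraries were left out (66 without ADCY3∆AT replicate 3), none of them a member. Leaving out single libraries gave structural medians of the log2 fold change from -0.056 to -0.0085, assembly factor medians from -0.126 (without ADCY3∆AT replicate 1) to -0.047, and differences between both medians from 0.0070 (without wild-type replicate 3) to 0.070. The cause was not tested.

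Signs near 0 turned. With library totals alone the log2 fold change was 0.0047 for Ndufa10, 0.0058 for Ndufa4, 0.0040 for Ndufab1 and 0.0091 for Ndufb8, and with Ndufb4c added that of Ndufb4 was 0.00033. Leaving out single libraries gave -0.068 to 0.021 for Ndufa10, -0.12 to 0.0039 for Ndufa1, -0.039 to 0.017 for Ndufa4, -0.057 to 0.028 for Ndufab1 and -0.057 to 0.029 for Ndufb8. Ndufaf4 kept its direction throughout (-0.18 to -0.12), as did Ndufv3 (0.079 to 0.11). The groups of both genes did not overlap, so leaving out a library could hardly turn these signs. Other members kept their direction too, among them Ndufc1, Ndufs1, Ndufs8 and Ndufb3. The median of all genes was 0.0039 in the main run, 0.0028 with RLE factors and 0.0188 with library totals alone. With library totals alone the structural median was -0.016 in place of -0.031, so both medians moved up by a like amount. The ratio of structural sums was then 0.99 in place of 0.979.

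The labels do not say whether libraries with the same replicate number belong together. Deviations of same-numbered libraries correlated at -0.0857, -0.128 and -0.0864, and so few correlations cannot settle whether they share a batch. With the replicate block in edgeR 0 members passed (lowest adjusted p 0.607). With 3 libraries a group, differences of the size seen here (log2 fold changes under 0.2) did not pass, and intervals cover the spread between these libraries only.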
